A study of Mus musculus with 15 samples.

Results

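Matricellular proteins and the provisional matrix were followed in the mouse ventricle through 9 genes: Spp1, Tnc, Postn, Thbs1, Thbs2, Fn1, Ctgf, Sparc and Spon2. They were chosen by name as secreted proteins of injured matrix, with earlier results of these data known. All 9 were found by symbol among the 16042 genes of the deposited table, 1 row each. All 9 were also among the 10868 genes with a mean of at least 1 RPKM over the 15 mice, which were the genes tested. Spp1 and Tnc passed that limit only through the 7 d mice and Spon2 only through the 12 h mice, so their being tested is not independent of their being high there.

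Matricellular proteins are secreted into the extracellular matrix, where they act on cell adhesion, growth factor activity and matrix assembly more than as structural fibres. In the healthy adult heart most of them are low, and they are known to return during wound healing, inflammation and fibrosis. The provisional matrix is the early scaffold of fibronectin, fibrin and their partners that is laid down before collagen scar. Fibroblasts, macrophages, endothelial cells and muscle cells can each make some of these proteins, so a ventricle measures their sum.

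The Celf1 mice, strain MHCrtTA/TRECUGBP1, carried a doxycycline-dependent activator under the alpha-myosin heavy chain promoter, which is active in heart muscle cells, and a tetracycline-responsive transgene for the Flag-tagged LYLQ isoform of human Celf1, an RNA-binding protein. There were 3 Celf1 mice at each of 12 h, 24 h, 72 h and 7 d of doxycycline, and 3 control mice, strain MHCrtTA, with the activator but without the transgene, at 72 h of doxycycline. Both strains were 20 to 22 weeks old and were given 2 g/kg doxycycline in food after food had been withheld for up to 3 h. Ventricle was what remained of each heart once atria and some tissue at the apex had been cut away. Because every control was taken at 72 h, only the 72 h comparison is matched in time on the diet, and the 4 comparisons with controls share the same 3 mice. The 24 h, 72 h and 7 d times are whole days of doxycycline and 12 h is not. The 12 h mice may thus differ from all other groups in time of day, and its part in the 12 h results was not tested.

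The transgene label was checked first. Celf1, listed under its older symbol Cugbp1, averaged 305 RPKM at 12 h, 378 RPKM at 24 h, 173 RPKM at 72 h and 32.8 RPKM at 7 d, against 34.4 RPKM in controls. At 7 d its difference from controls did not pass (limma, Benjamini-Hochberg adjusted p = 0.771), so that the transgene had been induced in these mice rests on their label alone. The markers fitted heart muscle: the summed RPKM of 8 cardiomyocyte genes was 11149 to 12642 in 7 d mice and 44492 to 46406 in controls. This sum was not a check of ventricle against atrium. RPKM, a read number divided by the length of the gene model and by the mapped reads of the library, can be set side by side between genes because it is per length. The table gives no read totals; from the step between low values, the estimated depth was 16.5 to 52.6 M reads per column (M, mega). The median difference of all tested genes from controls was -0.30 at 12 h, -0.19 at 24 h, -0.10 at 72 h and -0.03 at 7 d on the log2(RPKM + 1) scale, and the members' differences are to be read against it.

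Promoter sequences are shown for the 4 members with a start in the RefSeq table used here that lies near an annotated 5′ end: Spp1 and Postn, which changed most of these 4, and Sparc and Thbs2, which changed least. The 150 bases before the start are given 5′ to 3′ on the gene's own strand, in build GRCm38.p6, and capitals mark matches to the searched motifs.
Spp1, chr5:104434961-104435110, plus strand: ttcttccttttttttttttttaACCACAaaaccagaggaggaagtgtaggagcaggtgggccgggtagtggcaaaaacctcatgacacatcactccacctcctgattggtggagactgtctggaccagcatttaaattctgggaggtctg
Postn, chr3:54360957-54361106, plus strand: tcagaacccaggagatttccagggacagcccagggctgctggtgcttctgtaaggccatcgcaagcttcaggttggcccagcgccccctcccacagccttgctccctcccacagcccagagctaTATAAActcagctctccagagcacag
Thbs2, chr17:14694263-14694412, minus strand: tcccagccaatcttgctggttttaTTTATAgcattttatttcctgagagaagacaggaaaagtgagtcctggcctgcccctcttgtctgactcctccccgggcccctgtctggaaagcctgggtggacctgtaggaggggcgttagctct
Sparc, chr11:55420081-55420230, minus strand: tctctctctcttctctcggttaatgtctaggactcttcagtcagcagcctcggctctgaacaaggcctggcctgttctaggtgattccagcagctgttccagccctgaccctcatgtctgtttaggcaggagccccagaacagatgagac
The searched motifs, on both strands of the 300 bases around each start, were TATAAA, the AP-1 word TGANTCA, the TEAD word GGAATG, the RUNX word TGTGGT and the CArG box. The promoter table used here held 5 of the 9 members, with 8 starts. TATAAA was found at 5 of the 8 starts, 2 of which are Tnc starts that share the same bases, and occurs in 13.6% of all promoters of this length. The match in Postn lies at -26 to -21 from the start, and the capitals in Thbs2 are TATAAA read on the other strand, at -126 to -121. The capitals in Spp1 are the RUNX word on the other strand, at -128 to -123, and the RUNX word was found at 2 of the 8 starts beside 16.8% of all promoters. The AP-1, TEAD and CArG motifs were found at 0 of the 8 starts, and occur in 7.81%, 14.7% and 1.63% of all promoters. These are matches of letters in a window and say nothing of binding.

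At 7 d the 9 genes together reached 1934, 1589 and 1671 summed RPKM in the 3 Celf1 mice, against 344, 294 and 358 in the 3 controls. They made up 0.447 to 0.545% of all summed RPKM in 7 d mice and 0.0653 to 0.0781% in controls. The make-up of the sum also differed: Sparc was 45.0 to 49.0% of it in 7 d mice and 75.6 to 77.3% in controls, while Postn was 20.5 to 26.7% of it in 7 d mice and 2.62 to 5.86% in controls. In bulk RNA, fewer cells of a type and less RNA per cell cannot be told apart, here and in every result below.

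**Figure D1:**
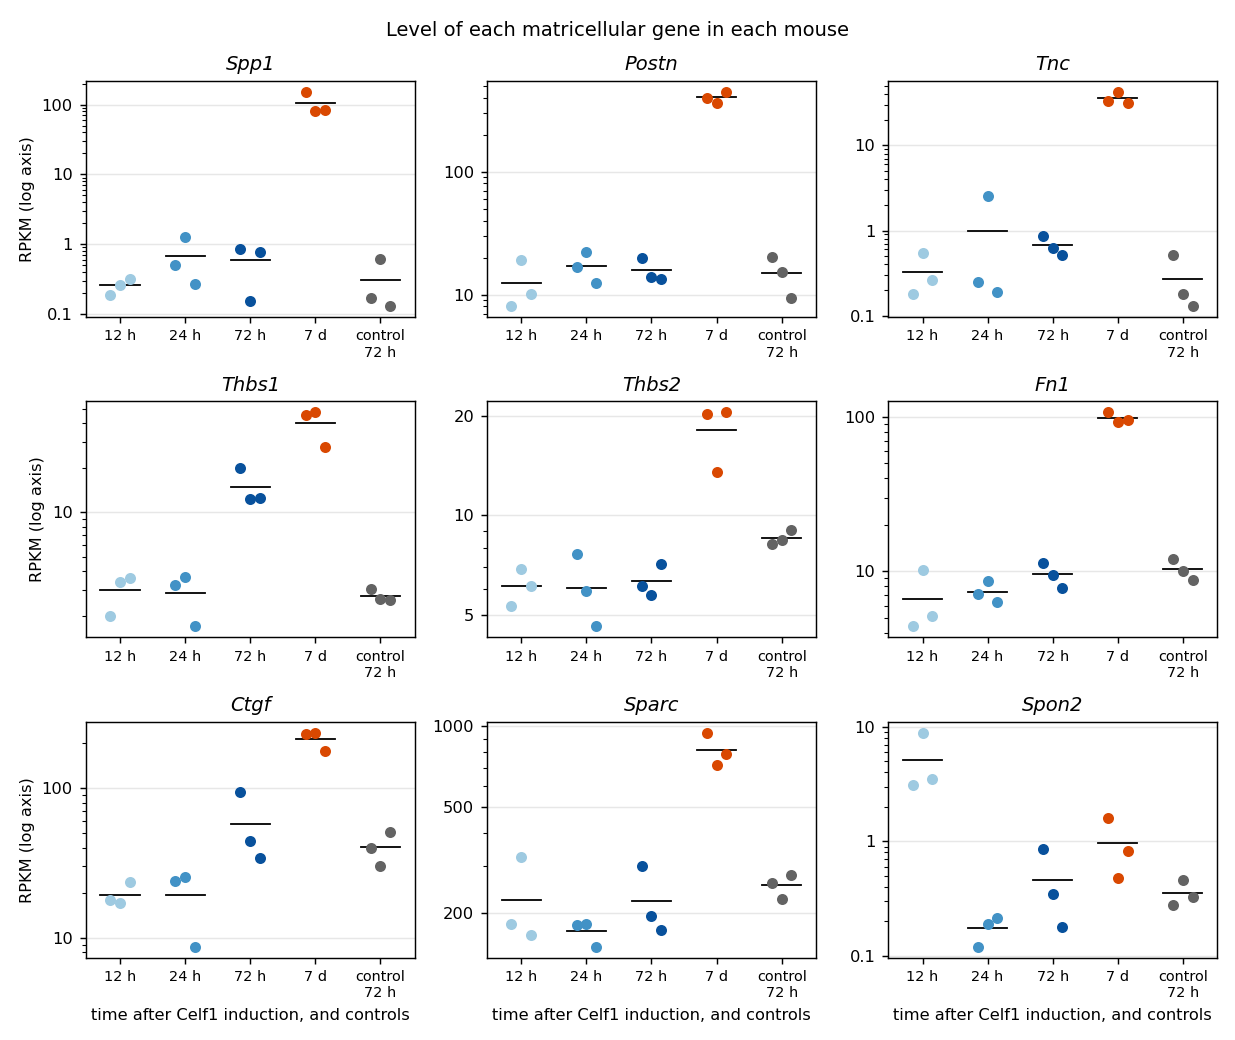
RPKM of each of the 9 genes in each mouse on a log axis, with 1 point per mouse, 3 mice per group and a line at the group mean; the 4 Celf1 times run left to right and the controls stand at the right. In 8 of the panels the 7 d points lie above every other group, and in the Spon2 panel the 12 h points do.

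Spp1 (ENSMUSG00000029304.8, mm9 chr5:104864137-104870069, plus strand) encodes osteopontin, a secreted phosphoprotein that binds integrins and CD44 and is a known product of activated macrophages. Its level was 153, 79.8 and 83.1 RPKM in 7 d mice, against 0.17, 0.62 and 0.13 RPKM in controls. Every 7 d mouse was above every other mouse by a wide margin, and the earlier groups overlapped the controls, with means of 0.257 RPKM at 12 h, 0.680 RPKM at 24 h and 0.597 RPKM at 72 h. The 7 d mean of 105 ± 41.3 RPKM was 343 times the control mean of 0.307 ± 0.272 RPKM (SD, n = 3 each). On the log2(RPKM + 1) scale, which understates the change of a gene this low in controls, the difference was 6.30 ± 0.27 (SE; limma, adjusted p = 2.80e-11), the 2nd largest in size of the 10868 genes. Between 7 d and 72 h Spp1 had the largest change in size of all genes tested, 6.02 ± 0.27 (adjusted p = 7.88e-11). The control values stood for an estimated 4.16 to 22.0 reads per column, so the size of the ratio is imprecise.

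Tnc (ENSMUSG00000028364.8, mm9 chr4:63620819-63681760, minus strand) encodes tenascin C, a large hexameric glycoprotein that loosens cell attachment and is nearly absent from the resting adult ventricle. It was 32.8, 42.6 and 31.3 RPKM in 7 d mice, against 0.51, 0.18 and 0.13 RPKM in controls. The 7 d mice stood apart from all others, by 4.84 ± 0.31 on the log2(RPKM + 1) scale (adjusted p = 1.87e-09), the 15th largest change. At 24 h mouse A3277 had 2.54 RPKM while the other two had 0.25 and 0.19 RPKM, and that mouse was also the highest at 24 h for Spp1, at 1.26 RPKM. At 72 h the levels of 0.87, 0.63 and 0.515 RPKM lay just above the controls, without passing the test (difference 0.40, adjusted p = 0.413). At that time 15.5% of all tested genes lay wholly above the controls. Exons of Tnc share 176 bases with 8030451A03Rik on the other strand, and no source used here states whether reads were counted by strand.

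Postn (ENSMUSG00000027750.9, mm9 chr3:54165031-54194961, plus strand) encodes periostin, which binds collagen and integrins and marks activated fibroblasts of the injured heart. Its level was 397, 363 and 446 RPKM in 7 d mice, against 20.2, 15.2 and 9.40 RPKM in controls. The controls were already well above background and differed among themselves by more than Postn differed between controls and any of the first 3 times, where the means were 12.4 RPKM at 12 h, 17.2 RPKM at 24 h and 15.7 RPKM at 72 h. The 7 d mean was 27 times the control mean, a log2 difference of 4.72 ± 0.29 (adjusted p = 1.45e-09), the 19th largest of all genes. Almost all of it fell between 72 h and 7 d, where the log2 difference was 4.61 ± 0.29 (adjusted p = 2.94e-09).

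Thbs1 (ENSMUSG00000040152.8, mm9 chr2:117937612-117952869, plus strand) encodes thrombospondin 1, which activates latent TGF-beta, restrains vessel growth and is stored in platelets. It was 19.8, 12.3 and 12.6 RPKM in 72 h mice, against 3.04, 2.61 and 2.55 RPKM in the time-matched controls. No mouse of the 2 groups overlapped, the ratio of means was 5.45 and the log2 difference was 2.06 ± 0.26 (adjusted p = 8.26e-05), the 30th largest of that comparison. At 12 h and 24 h its level overlapped the controls, with means of 2.99 RPKM and 2.85 RPKM. At 7 d it was 45.3, 47.5 and 27.6 RPKM, a mean 14.7 times that of controls, with a log2 difference of 3.42 ± 0.26 from controls (adjusted p = 1.42e-08) and of 1.37 ± 0.26 from 72 h mice (adjusted p = 0.000402). The 72 h difference passed under all 25 alternatives run, from 1.85 to 2.48, with adjusted p between 8.72e-06 and 0.00104. Of these, the fit with the column code as a term (see How the data were processed) rests on the 72 h mouse A3278 alone. The 6 platelet markers in the table summed to 2.79 to 4.88 RPKM in 72 h mice and 3.57 to 6.57 RPKM in controls, and these ranges overlapped.

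Thbs2 (ENSMUSG00000023885.7, mm9 chr17:14802507-14831269, minus strand) encodes thrombospondin 2, which has the same domain plan but does not activate TGF-beta, and is linked to collagen fibre assembly. Its level was 20.2, 13.5 and 20.5 RPKM in 7 d mice, against 8.20, 8.46 and 9.05 RPKM in controls. The groups did not overlap, and the log2 difference of 0.97 ± 0.19 (adjusted p = 0.000466) was the smallest among the 8 members that rose. Each column of the table carries a code of unstated meaning, and with a term for that code the call was lost (0.86, adjusted p = 0.0665). With that term every comparison with controls runs through the 72 h mouse A3278, the only Celf1 mouse that shares the controls' code. At 12 h, 24 h and 72 h all mice lay below all controls, with means of 6.13, 6.07 and 6.34 RPKM. So did 43.0%, 32.9% and 19.5% of all tested genes at these times. None of the 3 Thbs2 differences passed (adjusted p = 0.129, 0.104 and 0.20). The 2 thrombospondins therefore changed places in level: the ratio of Thbs1 to Thbs2 RPKM was 1.76 to 3.24 in 72 h mice, 1.35 to 3.51 in 7 d mice and 0.282 to 0.371 in controls, a description with no test.

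Fn1 (ENSMUSG00000026193.8, mm9 chr1:71632094-71699774, minus strand) encodes fibronectin, the main adhesive protein of the provisional matrix, and its locally made form differs from plasma fibronectin by alternative exons that a gene total cannot show. It was 107, 92.2 and 96.2 RPKM in 7 d mice, against 12.1, 10.1 and 8.77 RPKM in controls. The 7 d mice lay close together and far above the controls, with a ratio of means of 9.57 and a log2 difference of 3.15 ± 0.23 (adjusted p = 1.27e-08). At 12 h mice A3258 and A3276 had 4.40 and 5.12 RPKM, below every control, and A3252 had 10.3 RPKM, within them (difference -0.64, adjusted p = 0.0722; -0.96 and 0.0128 without A3252). At 72 h the level of 7.84 to 11.4 RPKM was within or just below that of the controls. Fn1 shares 292 exon bases with Apol7d on the other strand.

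Ctgf (ENSMUSG00000019997.4, mm9 chr10:24315248-24318489, plus strand) encodes connective tissue growth factor, also called CCN2, a secreted protein induced by TGF-beta and by the YAP and SRF pathways of mechanical stress. It was 17.9, 17.1 and 23.4 RPKM in 12 h mice and 23.9, 25.6 and 8.70 RPKM in 24 h mice, against 39.7, 30.4 and 51.1 RPKM in controls. Both early groups lay below all 3 controls, as did 43.0% of all tested genes at 12 h and 32.9% at 24 h. The 24 h difference of -1.12 ± 0.36 passed narrowly (adjusted p = 0.0447) and the 12 h difference of -1.0 ± 0.36 did not (adjusted p = 0.0704). The 12 h difference passed in 3 of the 25 alternatives run: with only the 2 groups compared (adjusted p = 0.0055), without the 24 h mouse A3262 (adjusted p = 0.0284) and without the 72 h mouse A3278 (adjusted p = 0.0306). After median-of-ratios scaling the 12 h difference was -0.65 and did not pass (adjusted p = 0.243). The 24 h call held in 8 of the 24 alternatives run: after median-of-ratios scaling, which removes the downward shift of all genes, it was -0.92 with adjusted p = 0.0594, and without mouse A3262 it was -0.65 with adjusted p = 0.236. With a term for the column code the 12 h difference was 0.39, of the other sign (adjusted p = 0.999).

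The later change of Ctgf was upward. Its 72 h levels of 93.7, 44.0 and 34.4 RPKM straddled those of controls, with the spread set by mouse A3278, and were above all 24 h mice, by 1.52 ± 0.36 on the log2 scale (adjusted p = 0.0131; 0.0614 without A3278 and 0.0726 without A3262). At 7 d it was 229, 234 and 176 RPKM, 5.28 times the controls on average, with a log2 difference of 2.39 ± 0.36 (adjusted p = 3.28e-05). Ctgf had the widest standard error of the 9 genes. It shares 570 exon bases with Gm15270 on the other strand.

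Sparc (ENSMUSG00000018593.6, mm9 chr11:55208002-55233582, minus strand) encodes osteonectin, a collagen-binding protein that helps procollagen to be processed, and it was the most abundant of the 9 genes in every group. It was 948, 715 and 789 RPKM in 7 d mice, against 260, 226 and 277 RPKM in controls. The groups were far apart, with a log2 difference of 1.68 ± 0.25 (adjusted p = 2.48e-05). In ratio this was a smaller change than that of the other members that rose except Thbs2, but it added more RPKM than any of them. At 24 h all 3 mice, at 182, 182 and 150 RPKM, were below the controls without passing (difference -0.57, adjusted p = 0.110; 0.0425 with only the 2 groups compared). At that time 32.9% of all tested genes lay wholly below the controls.

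Spon2 (ENSMUSG00000037379.4, mm9 chr5:33556167-33560887, minus strand) encodes spondin 2, also called mindin, an F-spondin family protein known as an integrin ligand and a pattern recognition molecule. It had a course of its own: 3.08, 8.90 and 3.52 RPKM in 12 h mice, against 0.28, 0.46 and 0.33 RPKM in controls. All 12 h mice were above every other mouse in the study, the mean was 14.5 times that of controls and the log2 difference was 2.07 ± 0.29 (adjusted p = 0.000827), the 19th largest of that comparison. At 24 h it was 0.12, 0.19 and 0.215 RPKM, below all 12 h mice (difference -2.27 ± 0.29, adjusted p = 0.000417). Spon2 was then also below all controls, as were 32.9% of all tested genes. At 7 d it was 1.61, 0.475 and 0.83 RPKM, just above the controls without passing (difference 0.50, adjusted p = 0.148).

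The 12 h call on Spon2 held without mouse A3252, at 1.66 (adjusted p = 0.00359), and was lost with a term for the column code, at 2.05 (adjusted p = 0.356). At a mean of 1.43 RPKM over the 15 mice, Spon2 was not tested where a mean of at least 5 RPKM was asked. The control values stood for an estimated 15.7 to 24.2 reads per column and the 12 h values for 209 to 329. Of 2 tested neutrophil markers, S100a9 was also called higher at 12 h (adjusted p = 0.0422) and S100a8 was not (adjusted p = 0.10), beside 0.524% of all genes. S100a9 was at 0.86 to 5.98 RPKM in 12 h mice and 0.28 to 1.32 RPKM in controls. The 4 neutrophil markers in the table summed to 1.15 to 8.45 RPKM in 12 h mice and 0.28 to 1.77 RPKM in controls, and these ranges overlapped. The parts of S100a9 and of time of day in the Spon2 result were not tested.

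**Figure D2:**
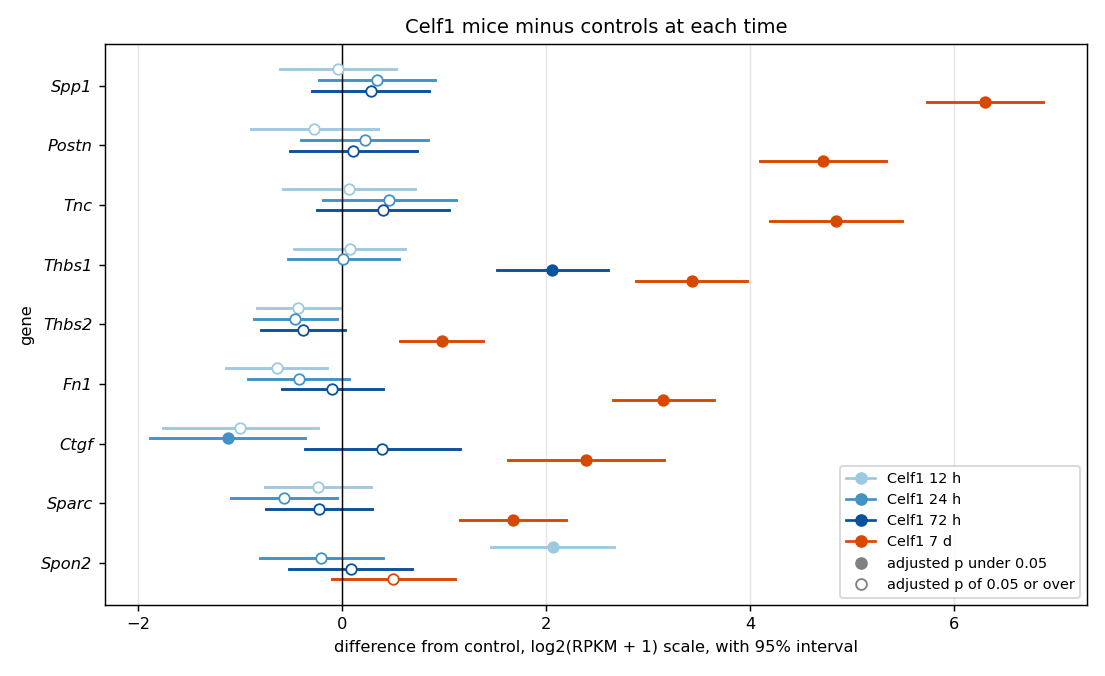
Difference of each gene between the Celf1 mice of each time and controls on the log2(RPKM + 1) scale, with its 95% interval from limma; filled points passed an adjusted p of 0.05 and open points did not. At 7 d 8 of the 9 points are filled and lie between 0.97 and 6.30, while earlier times have 1 filled point each: Spon2 at 12 h, Ctgf at 24 h and Thbs1 at 72 h.

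Counted by time, 1 of the 9 genes was called higher at 12 h, where 0.524% of all tested genes were. That gene was Spon2, which was tested only because of its 12 h level, so the count cannot be weighed against that share. At 24 h 1 was called lower, where 10.6% of all genes were, which is close to 1 in 9 and no result about the members. At 72 h 1 was called higher, beside 6.39% of all genes. At 7 d 8 were called higher, beside 26.7% of all genes. The 8 include Spp1 and Tnc, which passed the limit on level only through the 7 d mice. The 7 d mice did not overlap the controls and lay above them for all 9, beside 32.4% of all genes. For Spon2 this was by a narrow margin, with 0.475 RPKM in 7 d mouse A3283 and 0.46 RPKM in the highest control. The 2 columns of A3283 were at 0.67 and 0.28 RPKM, so the repeats of that mouse differed by more than this margin. The members' median log2 difference at 7 d was 3.15, and that of all genes was -0.03. For the 6 genes that did not pass the limit on level through a single group the median was 2.77. Because the members were chosen with earlier results of these data known, these counts and medians describe them and are not an independent test.

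The steps between successive times placed the changes. From 12 h to 24 h 1 gene, Spon2, was called lower, beside 0.57% of all genes. Spon2 was tested only because of its 12 h level. From 24 h to 72 h Thbs1 and Ctgf were called higher, beside 7.67% of all genes. From 72 h to 7 d 8 of the 9 were called higher, beside 22.6% of all genes, and Spon2 was not (difference 0.42, adjusted p = 0.251). Spp1 and Tnc, among these 8, were tested only because of their 7 d level. A test for any difference among the 5 groups passed for all 9, as it did for 71.3% of all genes.

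At 7 d the members' levels were in the order Sparc, Postn, Ctgf, Spp1, Fn1, Thbs1, Tnc, Thbs2 and Spon2, and in controls in the order Sparc, Ctgf, Postn, Fn1, Thbs2, Thbs1, Spon2, Spp1 and Tnc. Spp1 and Tnc thus stood last in controls, where they overlapped Spon2, and stood at places 4 and 7 at 7 d. Among neighbours at 7 d, Spp1 at 79.8 to 153 RPKM and Fn1 at 92.2 to 107 RPKM overlapped, and so did Thbs1 and Tnc. Mouse A3278 was the highest of the 72 h group for 8 of the 9 genes, and it shares its column code with the 3 controls. Mouse A3277 was the highest of the 24 h group for 7 genes and A3252 the highest of the 12 h group for 6, while the highest 7 d values were spread over the 3 mice.

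The related genes of the pathway were looked at next, in lists chosen by function with earlier results of these data known. Of 22 other matricellular genes tested, 13 were called higher and 1 lower at 7 d, with a median log2 difference of 0.88, beside 26.7% called higher and 28.2% called lower among all genes. Lgals3, galectin 3, a lectin of activated macrophages, averaged 151 ± 48.7 RPKM in 7 d mice and 1.83 ± 0.559 RPKM in controls (SD, n = 3 each; log2 difference 5.71, adjusted p = 1.27e-10). Wisp2, the CCN5 gene of the Ctgf family, was at 14.1 to 23.4 RPKM in 7 d mice and 1.77 to 2.92 RPKM in controls (adjusted p = 9.38e-08). Fbln2, fibulin 2, was at 148 to 208 RPKM in 7 d mice and 28.6 to 35.1 RPKM in controls (adjusted p = 1.23e-07). The gene called lower was Tnxb, tenascin X, at 11.1 to 16.9 RPKM in 7 d mice and 22.2 to 23.9 RPKM in controls, so the 2 tenascin genes tested moved in opposite directions. Sparcl1, the closest relative of Sparc, did not pass, with a log2 difference of -0.10.

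Of 9 tested genes of the provisional matrix and clot turnover, 6 were called higher and 1 lower at 7 d (median 1.54). Among all genes 26.7% were called higher and 28.2% lower. F13a1, the clot cross-linking factor XIII subunit that macrophages also make, was at 94.1 to 127 RPKM in 7 d mice and 6.45 to 8.43 RPKM in controls (adjusted p = 4.62e-10). Vcan, versican, a large proteoglycan that swells the early matrix, was at 12.3 to 15.7 RPKM in 7 d mice and 0.67 to 1.30 RPKM in controls (adjusted p = 1.02e-07). Vtn, vitronectin, was the one called lower, at 1.83 to 3.78 RPKM in 7 d mice and 9.03 to 10.6 RPKM in controls. The 3 fibrinogen genes, made in liver, were at most 0.145 RPKM in 7 d mice and at 0 in controls.

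Of 16 tested receptor genes, 13 were called higher and 1 lower at 7 d (median 1.21), beside 26.7% and 28.2% of all genes. Cd44, which binds osteopontin and hyaluronan, was at 38.6 to 45.5 RPKM in 7 d mice and 2.88 to 4.23 RPKM in controls (log2 difference 3.28, adjusted p = 2.37e-08). Itgb1, the common subunit of the fibronectin receptors, was at 252 to 316 RPKM in 7 d mice and 84.0 to 106 RPKM in controls (adjusted p = 1.59e-06). Itgb6, an epithelial partner of the alpha v integrin that binds fibronectin and latent TGF-beta, fell to 0.02 to 0.10 RPKM in 7 d mice, against 2.80 to 3.94 RPKM in controls (adjusted p = 7.44e-07). Its relative Itgb3 rose, at 2.88 to 5.02 RPKM in 7 d mice and 0.36 to 0.88 RPKM in controls.

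Of 14 TGF-beta signalling genes, 8 were called higher and 1, Smad3, lower at 7 d (median 0.83), beside 26.7% and 28.2% of all genes. Ltbp2, a latent TGF-beta binding protein family member, was at 13.1 to 18.6 RPKM in 7 d mice and 0.82 to 1.09 RPKM in controls (adjusted p = 6.95e-10). Tgfb2, the ligand, was at 22.8 to 29.4 RPKM in 7 d mice and 2.83 to 4.02 RPKM in controls (adjusted p = 5.02e-08), while Tgfb3 did not pass, with a log2 difference of 0.39. Bmp1, the protease that trims procollagen, was at 32.8 to 47.3 RPKM in 7 d mice and 14.2 to 16.2 RPKM in controls (adjusted p = 4.64e-05).

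The list of 12 genes linked to YAP and SRF, which are known to drive Ctgf, had 4 called higher and 4 lower at 7 d (median 0.31), near the 26.7% and 28.2% of all genes and no result about the list. Edn1, endothelin 1, was at 3.79 to 6.69 RPKM in 7 d mice and 0.86 to 1.76 RPKM in controls (adjusted p = 0.000201). Amotl2 and Lats2, which restrain YAP and are themselves its targets, fell, to 10.8 to 16.6 and 3.88 to 13 RPKM in 7 d mice, against 22.2 to 31.5 and 11.9 to 15.4 RPKM in controls (adjusted p = 0.00775 and 0.0263). Cyr61, the CCN1 gene that is on this list and on the matricellular one, did not pass, at 47.1 to 84.1 RPKM in 7 d mice and 33.2 to 50.2 RPKM in controls.

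Before 7 d few genes of these lists were called higher. At 12 h 0 genes of the 5 lists were called higher, while 4 other matricellular genes, 1 of the provisional matrix, 2 receptors, 1 of TGF-beta signalling and 5 linked to YAP and SRF were called lower, beside 12.7% of all genes. Over all genes the calls at 12 h, 1432 in both directions, numbered 229 after median-of-ratios scaling and 194 after quantile normalization, which remove the downward shift of all genes. At 24 h 1 TGF-beta gene was called higher, beside 5.38% of all genes, and 3, 0, 1, 1 and 3 genes of the same lists were called lower, beside 10.6%. At 72 h, when Thbs1 was up, 0 genes of the 5 lists were called in either direction, beside 6.39% of all genes called higher and 5.22% called lower. Among them, Plaur, the urokinase receptor, had a log2 difference of 0.80 at 72 h, which did not pass.

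**Figure D3:**
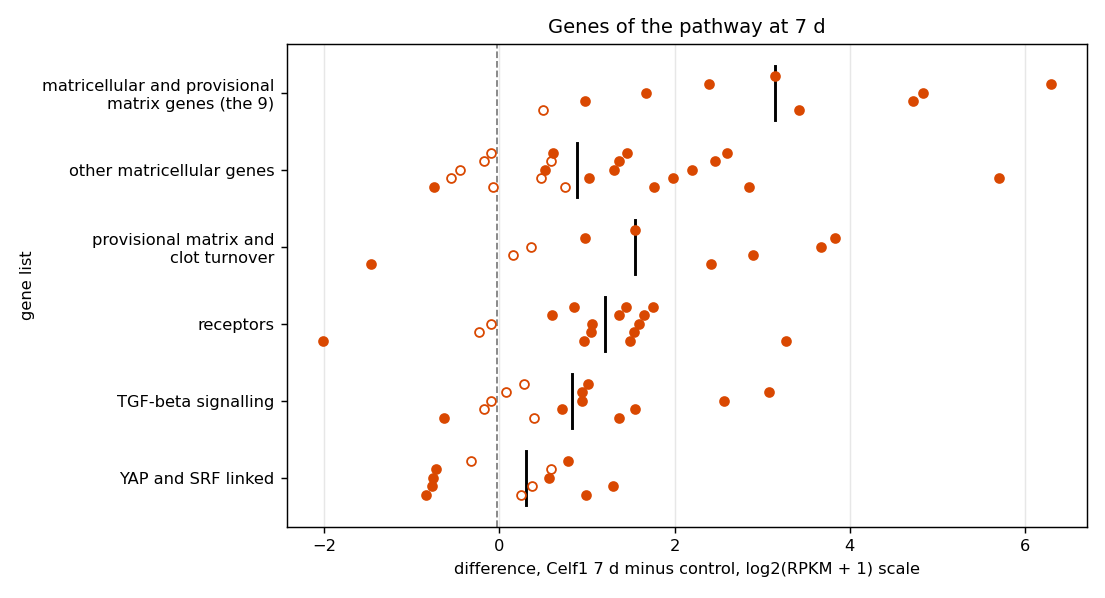
Difference between Celf1 7 d mice and controls on the log2(RPKM + 1) scale for the 9 genes and for the tested genes of 5 related lists, 1 point per gene; filled points passed an adjusted p of 0.05, black bars are list medians and the dashed line is the median of all tested genes. The bar of the 9 genes lies at 3.15 and those of the related lists lie between 0.31 and 1.54.

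Markers of several cell types moved with the 7 d result. Their counts stand beside 26.7% of all tested genes called higher and 28.2% called lower at 7 d. The 11 macrophage markers, all called higher, summed to 975 to 1322 RPKM in 7 d mice and 78.1 to 94.3 RPKM in controls, with a median log2 difference of 3.08. Mrc1, the mannose receptor, was at 63.3 to 92.0 RPKM in 7 d mice and 2.96 to 4.11 RPKM in controls (adjusted p = 2.16e-11). The 11 fibroblast markers, 7 of them higher and 0 lower, summed to 2152 to 2855 RPKM in 7 d mice and 628 to 734 RPKM in controls. Within that list the collagen gene Col3a1 rose by 3.83 on the log2 scale, whereas Tcf21, a transcription factor of resting fibroblasts, and Dpt did not pass, at 0.05 and -0.03. All 8 myofibroblast markers were higher, with sums of 286 to 389 RPKM in 7 d mice and 85.9 to 122 RPKM in controls, and Lox, which cross-links collagen, was at 67.6 to 113 RPKM in 7 d mice and 0.26 to 0.66 RPKM in controls.

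Most cardiomyocyte and endothelial markers were called lower at 7 d, beside 28.2% of all genes. Of 8 cardiomyocyte markers 7 were lower, and Myh6 was at 915 to 1195 RPKM in 7 d mice and 8932 to 9353 RPKM in controls. Of 8 endothelial markers 5 were lower, with sums of 177 to 214 RPKM in 7 d mice and 250 to 279 RPKM in controls. Of 7 mural markers 2 were higher, near the 26.7% of all genes, and 3 lower, beside 28.2%. Blood cell markers were low in level. The 4 neutrophil markers in the table summed to 16.4 to 23.9 RPKM in 7 d mice and 0.28 to 1.77 RPKM in controls. Of these, Camp and Ngp were at 0 in every control and reached at most 0.16 and 0.41 RPKM in 7 d mice. The lymphocyte sum was 8.12 to 14.3 RPKM in 7 d mice and 0.95 to 1.27 RPKM in controls, and Cd3e was the 1 marker tested. The platelet sum was 4.71 to 25.1 RPKM in 7 d mice and 3.57 to 6.57 RPKM in controls. Of 2 tested platelet markers only Ppbp was called higher, beside 26.7% of all genes. The epicardial sum was 25.3 to 75.2 RPKM in 7 d mice and 6.32 to 8.33 RPKM in controls. Of 3 tested epicardial markers only Aldh1a2 was called higher, beside the same share. It was at 20.5 to 69.1 RPKM in 7 d mice and 1.54 to 2.53 RPKM in controls. Of 4 tested atrial markers, Nppa was called higher at 575 to 1233 RPKM in 7 d mice and 36.3 to 49.4 RPKM in controls. Sln was called lower, and Myl7 and Myl4 did not pass. These atrial counts are near the shares of all genes and no result about the list. The part of each of these cell types in the matricellular result was not tested.

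**Figure D4:**
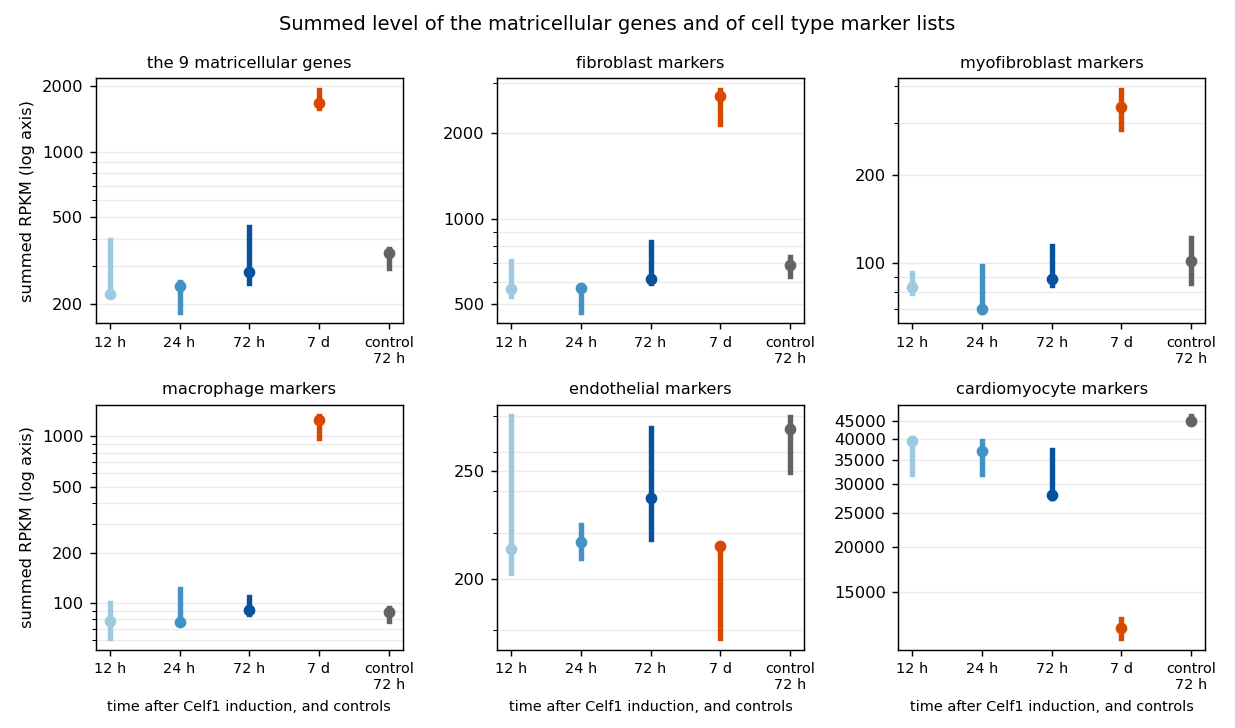
Summed RPKM of the 9 matricellular genes and of 5 cell type marker lists on log axes, with a bar over the range of the 3 mice in each group and a point at the median; the 4 Celf1 times run left to right and the controls stand at the right. The sum of the 9 genes and the fibroblast, myofibroblast and macrophage sums of 7 d mice lie above every other group, and the cardiomyocyte sum lies below.

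At 72 h, beside the Thbs1 result, 0 of 11 macrophage, 0 of 11 fibroblast and 0 of 8 myofibroblast markers were called in either direction. Of 8 cardiomyocyte markers 2 were called lower. Among all tested genes 6.39% were called higher and 5.22% lower at 72 h. The macrophage sum was 85.9 to 109 RPKM in 72 h mice and 78.1 to 94.3 RPKM in controls, and the fibroblast sum was 595 to 829 RPKM in 72 h mice and 628 to 734 RPKM in controls. Of 4 tested atrial markers 2, Myl7 and Myl4, were called lower at 72 h, and Nppa was not called (adjusted p = 0.629). Myl7 was at 1.8 to 18.4 RPKM in 72 h mice and 14.2 to 19.0 RPKM in controls. The sum of all 5 atrial markers, which includes Nppa, was 32.9 to 134 RPKM in 72 h mice and 105 to 119 RPKM in controls. The part of these markers in the Thbs1 result was not tested.

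The genes whose levels over the 15 mice were most like those of the 3 members with the smallest p for any difference among groups were taken as a description. For Spp1 they were Col12a1, Lox and Ltbp2, each with a Pearson r of 0.993 on the log2(RPKM + 1) scale. For Postn they were Gda, Fer1l3 and Cd44, with r of 0.991, 0.991 and 0.990. For Tnc they were Itgb2, Timp1 and Plek, with r of 0.992, 0.990 and 0.989. These values rest largely on the 3 mice of 7 d: over the other 12 mice r was 0.616, 0.478 and 0.466 for the genes like Spp1, 0.755, 0.758 and 0.809 for those like Postn, and 0.820, 0.844 and 0.945 for those like Tnc.

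Celf1 binds GU-rich words in 3′ untranslated regions, so the word TGTTTGT was counted in the annotated ones. It was present once each in Thbs2 and Fn1, 2 of the 9 members, or 22.2%, beside 24.8% of the 13766 genes of the table with an annotated 3′ untranslated region.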

How the data were processed

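Polyadenylated RNA of 15 ventricles was sequenced in paired ends, per the labels' protocols. The authors deposited RPKM values for 16042 genes in 20 columns; 5 mice have 2 columns, which were averaged. TopHat, Bowtie and mm9 are named in the submitters' processing notes; tool versions, how reads were counted and whether strand was used are not given in the sources at hand. RPKM are shares of a library, so a large change in abundant muscle transcripts shifts all other values. Columns carry 9 codes of unstated meaning. The controls share 1 with the 72 h mouse A3278 and with no other Celf1 mouse. With the code as a term, every comparison with controls therefore runs through A3278. The 24 h codes occur in no other group.

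Values were tested as log2(RPKM + 1) over all 5 groups with limma 3.58.1 (R 4.3.3; trend in the variance, 10 residual degrees of freedom) on the 10868 genes with a mean of at least 1 RPKM, with Benjamini-Hochberg adjustment over all of them and a threshold of 0.05. "Called" means past it. The labels give each mouse its own number, so replicates are animals. The fit was tested on simulated data. Alternatives were a pseudocount of 0.1, no limit or a limit of 5 RPKM, median-of-ratios scaling, quantile normalization, robust variance estimation, only the compared groups, the first column of each mouse, a GC correction, the column code as a term (no 24 h mouse), and each mouse left out. Depth was estimated from the step between RPKM values of 91 olfactory receptor genes (median 26.7 M reads per column). The members' values in repeated columns differed by a median ratio of 1.15 over the 35 pairs, of 45, with a mean of at least 1 RPKM. Pairs below that level could differ more, as Spon2 in mouse A3281 (0.28 and 0.08 RPKM, ratio 3.5).

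Gene positions are from GENCODE vM1 on mm9 and promoters from RefSeq on GRCm38.p6; the builds were not mixed. The members and lists were chosen with earlier results of these data known. Named were all 9 members, up to 3 genes per list with the smallest p among those called against controls, the 3 genes most like each of 3 members, and Celf1, except 1 gene that is not reported here; Tnxb, Vtn, Smad3, Itgb3, Sparcl1, Tgfb3, Cyr61, Plaur, Tcf21, Dpt, Sln, Camp and Ngp were named after their values were seen. Wisp3, Spock3, Pf4, Gp1bb, Ly6g and Elane were not analysed here.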

Additional observations from a re-analysis of the deposited data

How the results depend on the processing

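The 8 calls at 7 d against controls, the 8 between 7 d and 72 h and the 9 for any difference stayed within 1.5 times under every alternative run. At 12 h the 1 call became 0 with a limit of 5 RPKM and 0 with the column code, and 2 with only the 2 groups compared. At 24 h the 1 call became 0 with no limit, median-of-ratios scaling, quantile normalization, the first column or the GC correction; with only the 2 groups Sparc passed (-0.57, adjusted p = 0.0425) and Ctgf did not (adjusted p = 0.0562). At 72 h the column code put Ctgf at 1.23, a value that rests on mouse A3278 alone beside the controls. Between 24 h and 12 h the 1 call became 0 with a limit of 5 RPKM, since Spon2 was then not tested. Between 72 h and 24 h the 2 calls became 1 with only the 2 groups. Leaving out 1 mouse gave 1 to 2 calls at 12 h, 0 to 1 at 24 h, 1 at 72 h, 1 to 2 between 72 h and 24 h and 8 at 7 d. Where no mechanism is given, the cause was not tested. The column code could not be fitted at 24 h.

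Over all genes, calls numbered 1432 at 12 h (9 to 3244), 1736 at 24 h (39 to 2582), 1262 at 72 h (376 to 2490) and 5960 at 7 d (3171 to 6780). Of 1541 values of the members' log2 differences under alternatives, 21 lost and 7 gained a call, and 55 changed sign, of which 0 passed in either setting. Thbs2 at 7 d missed with the column code (0.86, adjusted p = 0.0665) and Spon2 at 7 d passed with the GC correction (0.76, adjusted p = 0.0209). Differences from controls correlated with GC content over 9672 genes (Spearman -0.58 at 12 h and 24 h, -0.35 at 72 h, -0.37 at 7 d). No paired analysis was possible because each mouse has its own number and the groups share none.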
